A study of Mus musculus with 17 samples.

Results

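The chemokine genes and chemokine receptor genes of mouse neuroblastoma were examined in 17 primary tumors of TH-MYCN mice. Members were the genes whose only symbol in the array's annotation is that of a numbered Ccl, Cxcl, Ccr or Cxcr gene or of a Cx3c or Xcl gene. This gave 48 of the 18193 genes that the annotation names with a single symbol, of which 33 were ligands (18 CC, 13 CXC, Cx3cl1 and Xcl1) and 15 were receptors. Every tumor was from a mouse carrying a MYCN transgene under the rat tyrosine hydroxylase promoter, which is active in neural crest cells, and by the study the mice were hemizygous for it. Each tumor was measured on its own Affymetrix mouse array, and all 17 form a single group with no second condition, so the relations below are between genes over tumors. The labels give no sex, age or treatment for a tumor, and no sorting of cells before RNA extraction is stated. In RNA of whole tissue, fewer cells of a type and less RNA per cell cannot be told apart.

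Chemokines are small secreted proteins that bind G protein coupled receptors on leukocytes and guide their movement. CC chemokines mainly attract monocytes and lymphocytes. Among CXC chemokines, Cxcl1 and Cxcl2 attract neutrophils through Cxcr2, and Cxcl9, Cxcl10 and Cxcl11 attract activated T and NK cells through Cxcr3 and are induced by interferon. Some members are made without inflammation, such as Cxcl12, the ligand of Cxcr4 made by stromal cells.

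Values are RMA log2 expression values, a gene's value is that of its brightest probe set on average. The SD is taken over the 17 tumors. The sympathoadrenal character of the tumors, which the labels do not state, was checked with 20 markers of that lineage. Of these, 17 had a mean quartile of 3.5 or above. The quartile is that of a probe set within its own array, with 4 the highest. The mean of those markers lay between 11.09 and 11.47 in every tumor. The tumors mad562 and mad565 stood apart together in interferon response genes. In macrophage markers mad565 did not, with a mean of 9.32, below the 9.37 of mad550. The mean of 22 interferon response genes was 8.17 in mad562 and 7.87 in mad565, and at most 6.99 in the other 15. In mad562 the highest value of all tumors was reached by 14 of those 22 genes, by 9 of 17 macrophage markers, by 8 of 11 MHC class II genes and by 7 of 7 liver markers. The mean of the liver list was 9.48 there and its median over the tumors 5.29. The mean of 9 B cell markers was also highest in mad562, at 6.06. Muscle markers were highest in mad553, mad550 and mad549. Results that rest on mad562 or mad565 are given with and without them. The part of the liver and B cell markers in those results was not tested.

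The promoters of Cxcl9, Cxcl10 and Ccl8 are shown because these genes rose with the interferon response genes and had their highest values in mad562 or mad565. Each line holds the 250 bases before the gene's start, 5′ to 3′ on the gene's strand, from RefSeq on GRCm38.p6. Cxcl9 is at chr5:92328080-92328329, Cxcl10 at chr5:92348890-92349139 (both on the minus strand) and Ccl8 at chr11:82114935-82115184 (plus strand). Capitals mark matches to any of 4 motifs, which were the core of the interferon-stimulated response element GAAANNGAAA, the core of the gamma-activated site TTCNNNGAA, the NF-kB consensus and TATAAA. The first 3 were searched on both strands and TATAAA on the gene's strand.
Cxcl9: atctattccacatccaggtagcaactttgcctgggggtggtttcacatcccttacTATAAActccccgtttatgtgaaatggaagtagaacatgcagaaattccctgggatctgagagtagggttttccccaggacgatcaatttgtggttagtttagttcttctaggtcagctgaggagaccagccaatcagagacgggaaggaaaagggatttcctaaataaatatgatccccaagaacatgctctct
Cxcl10: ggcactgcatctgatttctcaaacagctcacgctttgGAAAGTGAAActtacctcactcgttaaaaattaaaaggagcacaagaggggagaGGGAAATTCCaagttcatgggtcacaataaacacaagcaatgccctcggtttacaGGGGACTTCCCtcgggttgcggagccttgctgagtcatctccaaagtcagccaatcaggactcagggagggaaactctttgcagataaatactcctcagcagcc
Ccl8: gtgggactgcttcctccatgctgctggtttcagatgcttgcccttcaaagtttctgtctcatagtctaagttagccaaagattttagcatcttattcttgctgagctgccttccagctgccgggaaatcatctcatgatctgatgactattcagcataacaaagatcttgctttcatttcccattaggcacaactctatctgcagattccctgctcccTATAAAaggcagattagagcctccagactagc

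Only the Cxcl10 window of the 3 shown held the interferon-stimulated response element core, at bases 213 to 204 before the start. That window also held the NF-kB consensus at bases 159 to 150 and, on both strands and overlapping, at bases 104 to 94. The Cxcl9 window held only TATAAA, at bases 195 to 190, and the Ccl8 window only TATAAA, at bases 32 to 27. Promoter windows were found for 35 of the 48 members, with 39 windows in all. The NF-kB consensus was in 10 of these 39 windows (25.6%) and in 7.25% of all 32851 windows. Those 10 were the windows of Ccl1, Ccl9, Ccl20, Ccr1, Ccr3, Ccr6, Cxcl1, Cxcl2, Cxcl3 and Cxcl10. TATAAA was also in 10 of the 39 (25.6%), against 7.59% of all windows. These matches began at any place from 195 bases (Cxcl9) to 6 bases (Cx3cl1) before the start. The response element core was in the windows of Cxcl10 and Cxcl14 (5.13%, against 2.98%), and the gamma-activated site core in those of Ccl17, Ccr6 and Cxcl14 (7.69%, against 7.02%). A match describes letters and says nothing of binding, and the lack of a match says nothing of elements that were not searched.

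Few of the 48 members stood high in the arrays. A mean quartile of 3.5 or above was found for 2 of 48 members (4.17%) and for 33.4% of all genes. These were Ccl27a, a skin chemokine that attracts T cells, and Ccl6, a myeloid CC chemokine of rodents. Ccl27a was in the top quartile of every tumor, with a lowest value of 9.17 in mad562, a median of 9.52 and a range of 0.83, and the tumors differed little (SD 0.22). Its only probe set is of a type that the array marks as shared between sequences. Ccl6 ran from 8.05 in mad551 through a median of 9.02 to 10.49 in mad548 (SD 0.80). Pf4, a chemokine whose symbol is outside the rule for members, had a mean quartile of 3.53 (SD 0.81). It was lowest in mad562, at 7.60. The mean quartile was under 2.5 for 40 members (83.3%) and for 42.5% of all genes. Between those limits lay the 6 ligands Ccl8, Ccl9, Ccl24, Ccl25, Cxcl1 and Cxcl16. Of these, Ccl24, an eosinophil attractant, varied between 6.85 and 7.47, and Ccl25, which attracts cells to thymus and gut through Ccr9, between 6.52 and 7.80.

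The receptors were all under a mean quartile of 2.5. Ccr3, Ccr4, Ccr9, Cxcr2, Cxcr5 and Cxcr6 were in the lowest quartile of every tumor, as were the ligands Cxcl3, Cxcl5 and Xcl1, 9 members in all (18.8%), against 14% of all genes. Ccr1, Ccr7 and Ccr8 had mean quartiles of 1.47, 1.06 and 1.24. Ccr2, Ccr6, Ccr10, Cx3cr1, Cxcr3 and Cxcr4 had mean quartiles between 2.0 and 2.18. Differences between tumors at the lowest levels of an array carry little information. The plot of levels shows each member's 17 values against the limits of the quartiles.

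**Figure D1:**
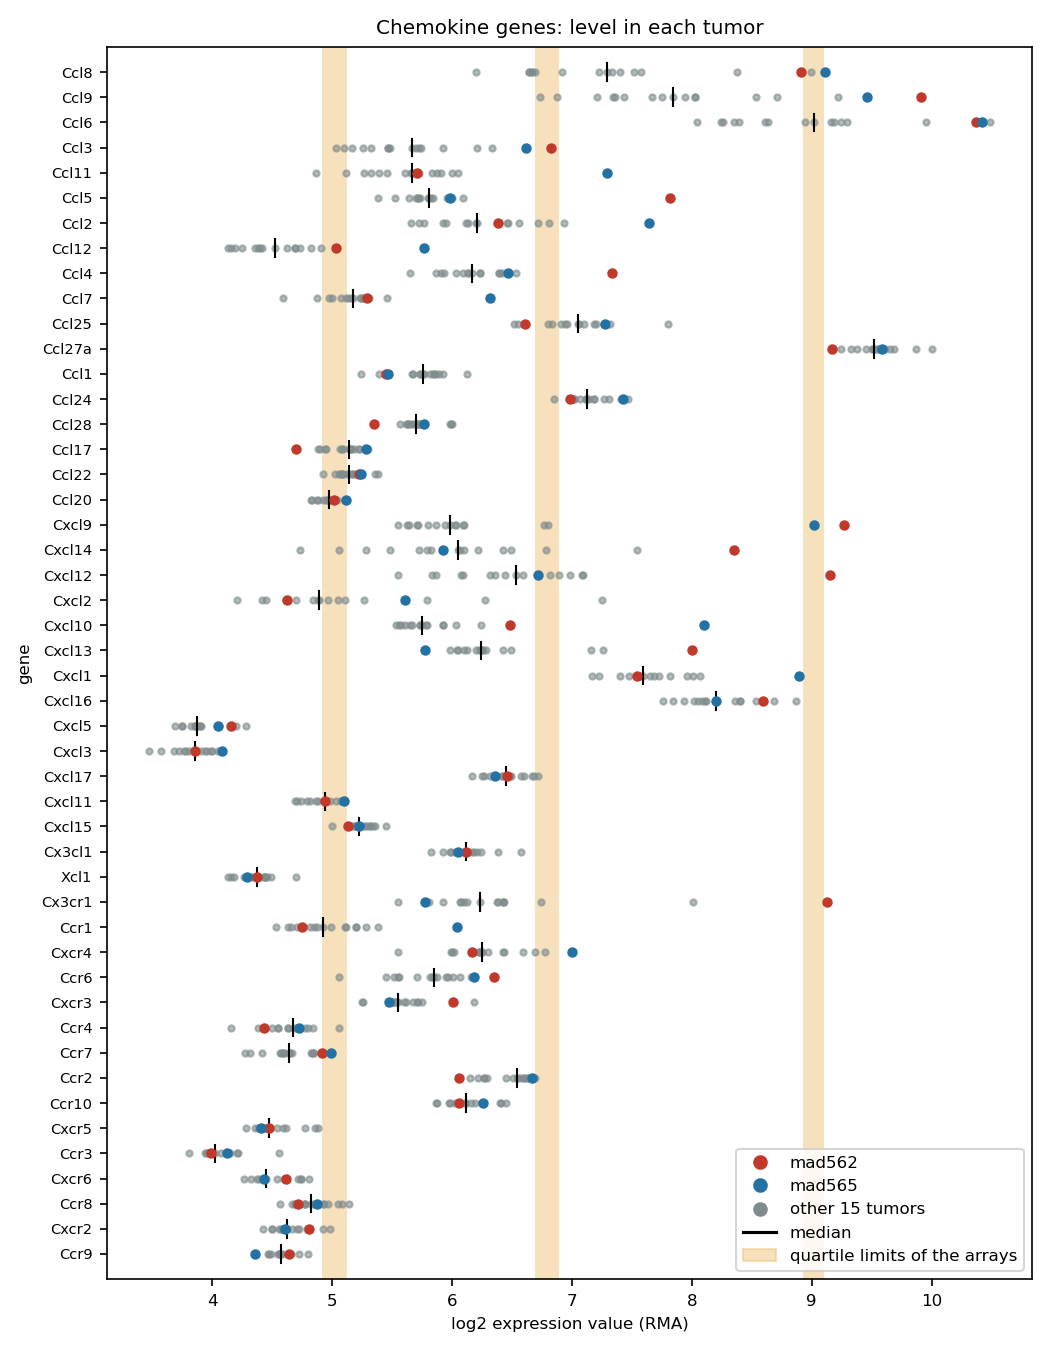
Log2 expression value (RMA) of each chemokine gene (rows) in each of the 17 tumors. Red points are mad562, blue points mad565, grey points the other 15 tumors, black ticks the median and orange bands the range over arrays of the 3 quartile limits. Ccl27a lies above and Ccl6 around the upper limit, most receptors lie left of the middle limit, and the red or blue point stands apart for Cxcl9, Cxcl10, Cxcl12, Cx3cr1 and Ccl5.

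The ligands held most of the members that differed widely between tumors. An SD of 0.5 or more was found for 14 of 48 members (29.2%) and for 6.79% of all genes. These were 13 ligands and a single receptor, Cx3cr1. The median SD was 0.23 over the members and 0.19 over all genes. Without mad562 and mad565 the share was 12.5% (6 members: Ccl6, Ccl8, Ccl9, Cxcl2, Cxcl14 and Cx3cr1) against 5.18%. The spread was not tested, since there is 1 group.

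Cxcl9 varied most, with an SD of 1.11. It was 5.55 in its lowest tumor, 5.98 in the median, 9.02 in mad565 and 9.27 in mad562, and no other tumor was above 6.80. Cxcl10 was 5.53 at its lowest and 5.75 in the median, and was highest in mad565 at 8.10 and next in mad562 at 6.49. The third gene of that family, Cxcl11, stayed between 4.69 and 5.10, with a mean quartile of 1.35. Its other probe set was in the lowest quartile of every tumor (r = -0.33 with the one used). Cxcl9 was thus high in both tumors and Cxcl10 mostly in mad565. Cxcl11 was too dim for its small range of 0.41 to show whether it changed.

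Among CC ligands the widest ranges were those of Ccl8, a monocyte attractant, and Ccl9, a myeloid chemokine. Ccl8 was lowest in mad563 at 6.20, had a median of 7.29 and reached 9.11 in mad565, 8.99 in mad553 and 8.92 in mad562. Ccl9 was lowest in mad551 at 6.73, had a median of 7.84 and reached 9.91 in mad562 and 9.46 in mad565. Another tumor lay close to mad562 and mad565 for both genes, mad553 for Ccl8 and mad548, at 9.22, for Ccl9.

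Several members were high in mad562 but not in mad565. Cx3cr1, the fractalkine receptor of monocytes and microglia, had a lowest value of 5.55, a median of 6.24, 8.01 in mad550 and 9.13 in mad562. Cxcl12 ran from 5.55 through a median of 6.53 to 9.15 in mad562, the next tumor being at 7.09. Cxcl14, a chemokine of epithelia and stroma, ran from 4.74 through 6.05 to 8.35 in mad562, with mad554 next at 7.54. In mad565 Cxcl12 was 6.72 and Cxcl14 5.92, both near their medians, and Cx3cr1 was 5.78, where only mad564 was lower. Cxcl13, which attracts B cells through Cxcr5, ran from 5.78 in mad565 itself through 6.24 to 8.01 in mad562. Its other probe set had a wider range, 4.48 to 10.20, with the same highest tumor (r = 0.93 between the probe sets over the 17 tumors). Ccl5, a T cell and macrophage chemokine, ran from 5.39 through 5.81 to 7.82 in mad562, with every other tumor at 6.10 or below.

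Other members were high in mad565 but not in mad562. Ccl2, the main monocyte attractant, ran from 5.66 through 6.21 to 7.65 in mad565 and was 6.39 in mad562. Ccl11, the eosinophil attractant eotaxin, ran from 4.86 through 5.66 to 7.30 in mad565 and was 5.71 in mad562. Cxcl1 ran from 7.17 through 7.60 to 8.90 in mad565 and was 7.54 in mad562. The next highest values were 6.94 for Ccl2, 6.05 for Ccl11 and 8.07 for Cxcl1, so mad565 stood above every other tumor in each. Ccl7, a monocyte attractant, reached 6.32 in mad565 with 5.46 next, and Ccr1, a receptor of myeloid cells, 6.04 with 5.38 next.

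Over all members, 11 (22.9%) lay at least 1 log2 unit above the median of the other 15 tumors in mad562, against 4.5% of all genes, and 12 (25.0%) did so in mad565, against 1.28%. The highest of all 17 values was in mad562 for 10 members (20.8%), against 10% of all genes, and in mad565 for 12 (25.0%), against 4.33%. Cxcl9, Ccl3, Ccl6, Ccl8 and Ccl9 were at least 1 unit up in both. Cxcl2, a neutrophil attractant, followed another order. It ran from 4.21 through 4.89 to 7.26 in mad561, with mad554 next at 6.28, and was 4.63 in mad562.

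**Figure D2:**
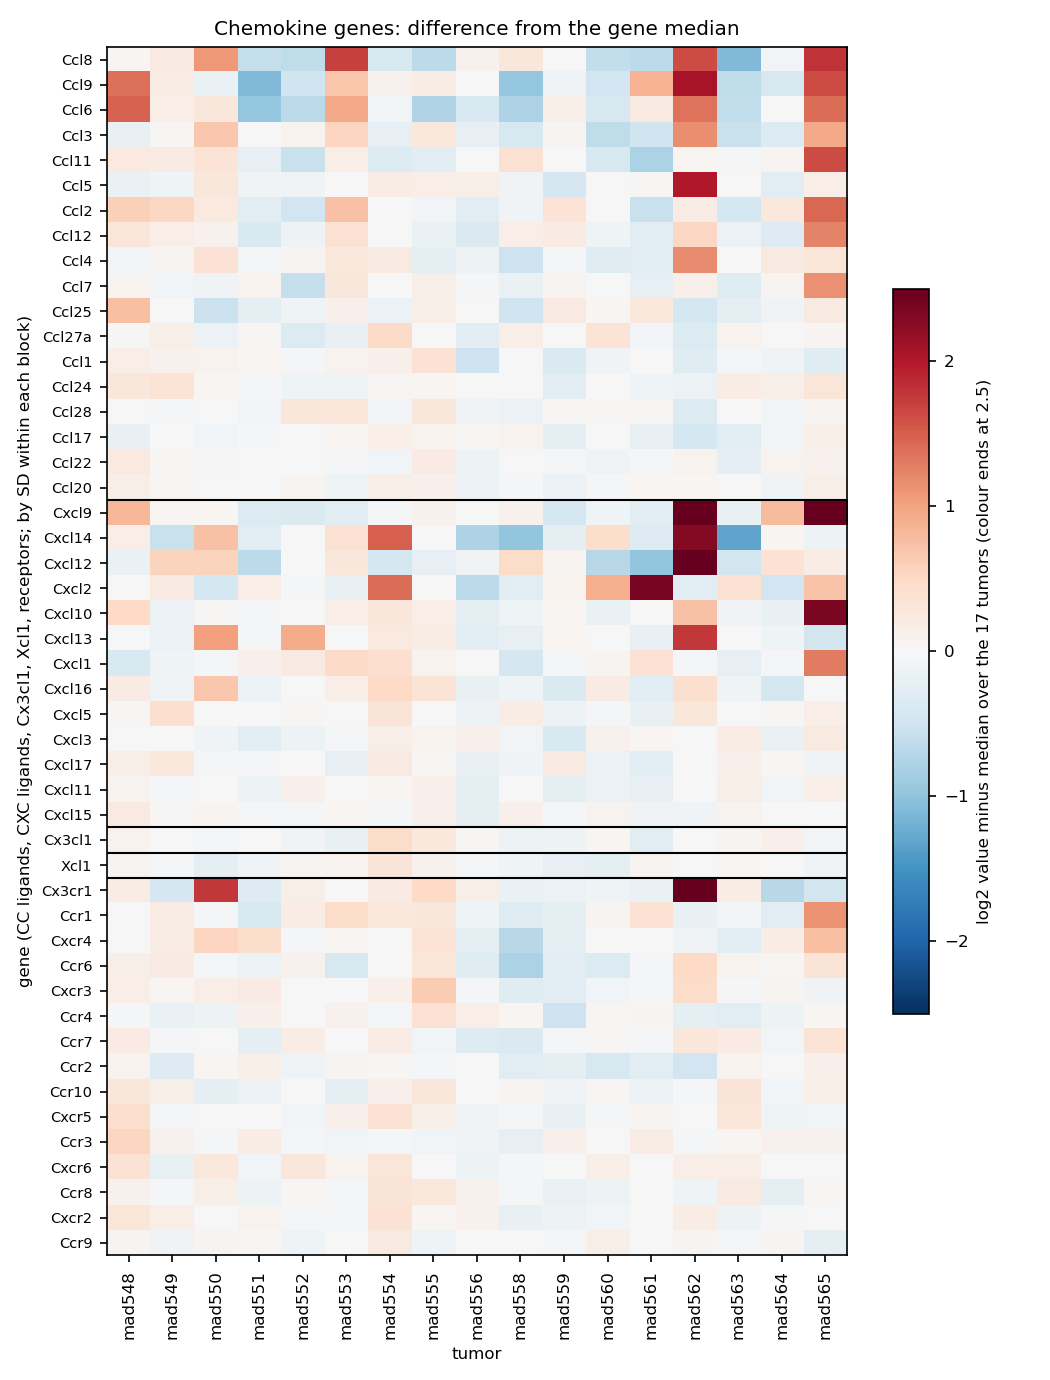
Difference of each chemokine gene (rows, in blocks of CC ligands, CXC ligands, Cx3cl1, Xcl1 and receptors) from its own median in each tumor (columns), in log2 units, with red for higher and blue for lower. The columns of mad562 and mad565 hold most of the dark red cells. Both are red for Cxcl9, Ccl3, Ccl6, Ccl8 and Ccl9 and differ in other rows, and the receptor block is pale apart from Cx3cr1 and, in mad565, Ccr1.

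Genes that lie side by side on chromosome 11 shared their highest tumor. In the RefSeq order Ccl2, Ccl7, Ccl11, Ccl12, Ccl8 and Ccl1 are neighbours, and the first 5 were all highest in mad565. Ccl12, a monocyte attractant, was 5.77 there, with a median of 4.52. Its mean quartile was 1.12, so most of its values lay in the lowest quartile. Ccl1, at the end of the run, was highest in mad555 and stayed between 5.25 and 6.13. Over the 15 pairs of this run the median Pearson r over the 17 tumors was 0.73, and 0.44 without mad562 and mad565. Ccl2 and Ccl8 kept an r of 0.73 without these tumors (0.75 with them).

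In the other run on chromosome 11, Ccl5, Ccl9, Ccl3 and Ccl4 were highest in mad562 and Ccl6 in mad548. Ccl3 and Ccl4 are inflammatory chemokines of macrophages and lymphocytes. Ccl3 ran from 5.04 through 5.67 to 6.83 in mad562, and Ccl4 from 5.65 through 6.16 to 7.34. The median r over the 10 pairs was 0.60, and 0.21 without both tumors. Ccl6 and Ccl9 were the pair that stayed closest (r = 0.90, and 0.84 without the 2 tumors). Cxcl9 and Cxcl10, neighbours on chromosome 5, had an r of 0.79, which was 0.23 without mad562 and mad565, while Cxcl11 beside them had an r of 0.33 with Cxcl9 and 0.46 with Cxcl10. Other neighbouring members had lower medians, with 0.10 for the 5 genes from Cxcl5 to Cxcl2 on chromosome 5, 0.12 for the 5 from Ccr9 to Ccr2 on chromosome 9 and 0.18 for Ccl22, Cx3cl1 and Ccl17 on chromosome 8. These correlations are descriptions, and neighbouring genes of this family are similar in sequence.

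**Figure D3:**
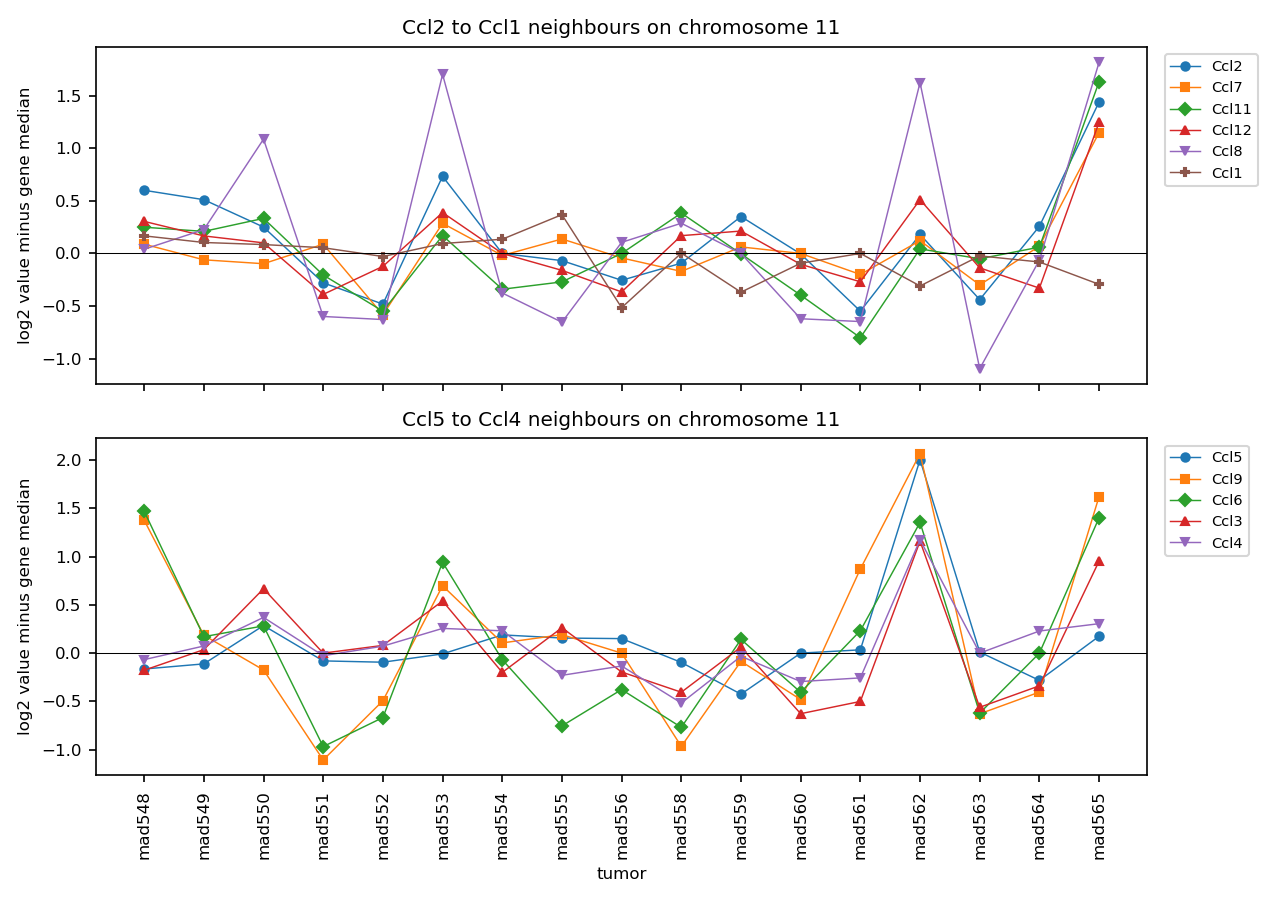
Difference of each gene from its own median (log2 units, vertical) in the 17 tumors (horizontal), for the neighbouring genes Ccl2 to Ccl1 (upper panel) and Ccl5 to Ccl4 (lower panel) of chromosome 11. In the upper panel 5 of 6 lines peak in mad565 while Ccl8 is also high in mad553 and mad562, and in the lower panel all but Ccl6 peak in mad562.

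The next comparison asked which chemokine genes rose with the mean of macrophage markers (C1qa, Csf1r, Cd68 and 14 others). The list holds no member. limma was fitted to all genes with the list mean of each tumor as covariate, and the slope is the change in a gene's log2 value per log2 unit of the list mean. With a Benjamini-Hochberg adjusted p under 0.05, 8 of 48 members (16.7%) rose, against 4.5% of all genes, and 0 members fell, against 0.572%. The risen members were Ccl3, Ccl4, Ccl6, Ccl8, Ccl9, Cxcl9, Cxcl14 and Cx3cr1. The median slope was 0.16 over the 48 members, and 40 had a positive slope. Neither value was taken over all genes, so they are not read as a trait of the members. The mean of the 9 B cell markers moved with the macrophage list (r = 0.88 over the tumors, and 0.83 without mad562 and mad565), and its part in these calls was not tested.

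Ccl6 had a slope of 1.485 (SE 0.25, limma adjusted p = 0.000757). Its correlation with the list over the 17 tumors was r = 0.82 (permutation p = 0.00014) and rho = 0.75 (permutation p = 0.00083), and r was 0.84 without mad562 and mad550, the tumors farthest from the list's median. Ccl9 had a slope of 1.62 (SE 0.29, limma adjusted p = 0.00171), Ccl3 one of 0.96 (SE 0.17, 0.00137) and Cxcl14 one of 1.57 (SE 0.29, 0.0018). Cx3cr1 had a slope of 1.31 (SE 0.35, limma adjusted p = 0.0333) but rested on single tumors, and the call was lost without mad549, mad550, mad551 or mad562. Ccl3, Ccl6 and Ccl9 passed with any single tumor left out, whereas Ccl4, Ccl8, Cxcl9 and Cxcl14 did not pass without mad562, where their slopes were 0.42, 1.46, 1.12 and 1.22.

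Without both mad562 and mad565 only Ccl6 and Cxcl14 passed (4.17%, against 1.26% of all genes). Ccl6 then had a slope of 1.42 (SE 0.34, limma adjusted p = 0.0451) and Cxcl14 one of 1.51 (SE 0.34, 0.0372). The other 6 did not pass, with slopes of 0.71 for Ccl3, 0.40 for Ccl4, 1.11 for Ccl8, 1.20 for Ccl9, 0.29 for Cxcl9 and 0.91 for Cx3cr1 and limma adjusted p between 0.159 and 0.772.

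**Figure D4:**
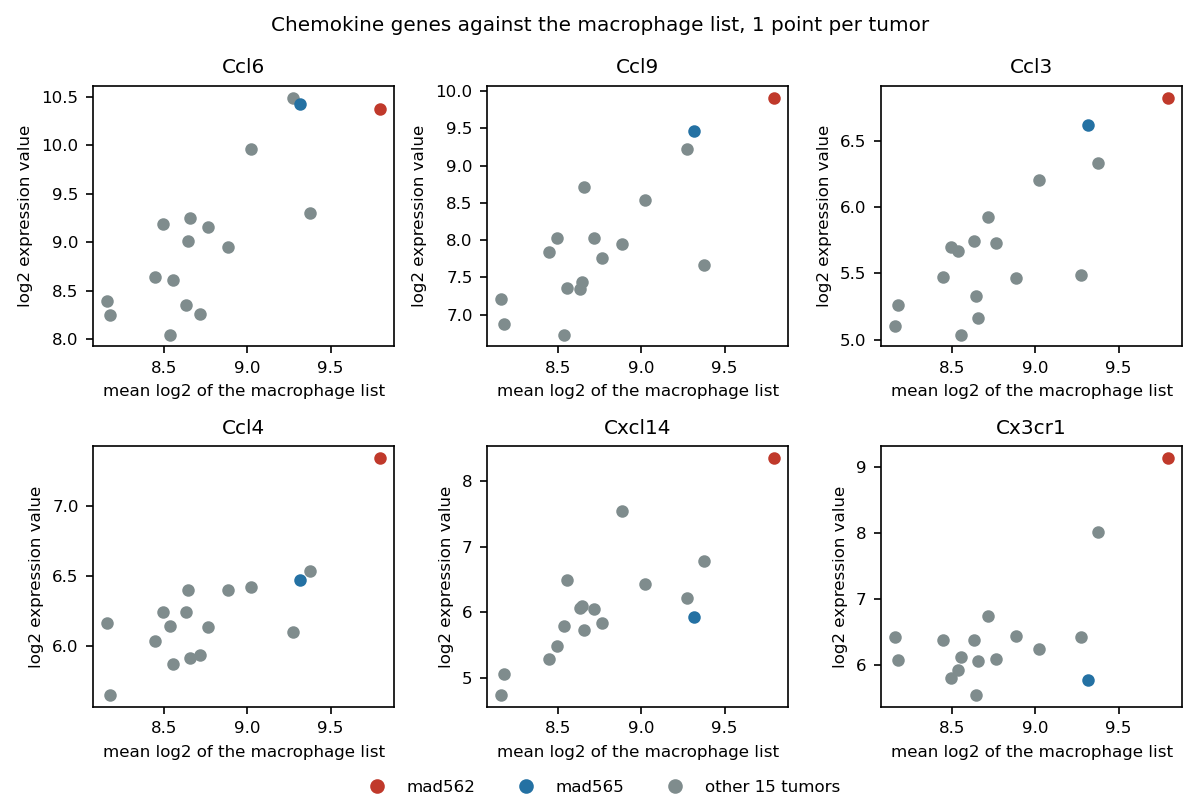
Log2 expression value of 6 chemokine genes (vertical) against the mean log2 value of 17 macrophage markers (horizontal), 1 point per tumor, with mad562 in red and mad565 in blue. Ccl6, Ccl9, Ccl3 and Cxcl14 climb through the grey points as well, whereas the high values of Cx3cr1 are those of mad562 and mad550.

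With the mean of 22 interferon response genes (such as Irf7, Ifit1, Gbp2 and Iigp1), 10 of 48 members (20.8%) rose, against 4.09% of all genes, and 0 fell, against 0.363%. They were Ccl3, Ccl4, Ccl5, Ccl6, Ccl8, Ccl9, Ccl12, Cxcl9, Cxcl10 and Cxcl12, all ligands. The macrophage and interferon lists themselves had an r of 0.85 over the tumors (0.80 without mad562 and mad565), so the fits are not independent. Together they called 12 members, of which 6 rose with both lists.

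Cxcl9 had the steepest slope, 1.95 (SE 0.21, limma adjusted p = 1.29e-05). Over the other 15 tumors its slope was 0.55 (SE 0.40, limma adjusted p = 0.725), so the relation rests on mad562 and mad565. Cxcl10 had a slope of 0.92 (SE 0.18, limma adjusted p = 0.00331), and 0.52 (SE 0.20, 0.322) without them. Ccl8 had a slope of 1.38 (SE 0.26, limma adjusted p = 0.00261) and a steeper one, 2.06 (SE 0.64, 0.16), without them. Ccl3 had a slope of 0.89 (SE 0.12, limma adjusted p = 0.000112) and was the only member that passed without both tumors, where its slope was 1.34 (SE 0.29, 0.0301), that is 1 member (2.08%) against 1.08% of all genes.

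The other risen members had slopes between 0.56 for Ccl4 and 1.37 for Ccl9, with limma adjusted p between 0.00232 and 0.0138. Ccl5 had a slope of 0.77 over all tumors and 0.29 without mad562 and mad565. Cxcl12 had one of 1.12, and 0.97 without them. Ccl4, Ccl6, Ccl9 and Ccl12 had slopes of 0.54, 1.52, 1.49 and 0.47 without them. Their limma adjusted p then lay between 0.404 and 0.603. Ccl3, Ccl8, Cxcl9 and Cxcl10 passed with any single tumor left out. Without mad562 the calls of Ccl4, Ccl5, Ccl6, Ccl9 and Cxcl12 were lost. The slopes were then 0.35 for Ccl4, 0.20 for Ccl5 and 0.45 for Cxcl12, but 1.29 for Ccl6 and 1.38 for Ccl9, which were no lower than over all tumors. Without mad565 the calls of Ccl6 and Ccl12 were lost, with slopes of 1.06 and 0.38, against 1.10 and 0.58 over all tumors. When both list means were in the fit, 0 members passed for the macrophage list, against 0.0385% of all genes, and 1 (2.08%) for the interferon list, against 0.132%. That member was Cxcl9, with a slope of 2.48 (limma adjusted p = 0.00581), and so few genes passed that the counts say little of the members.

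**Figure D5:**
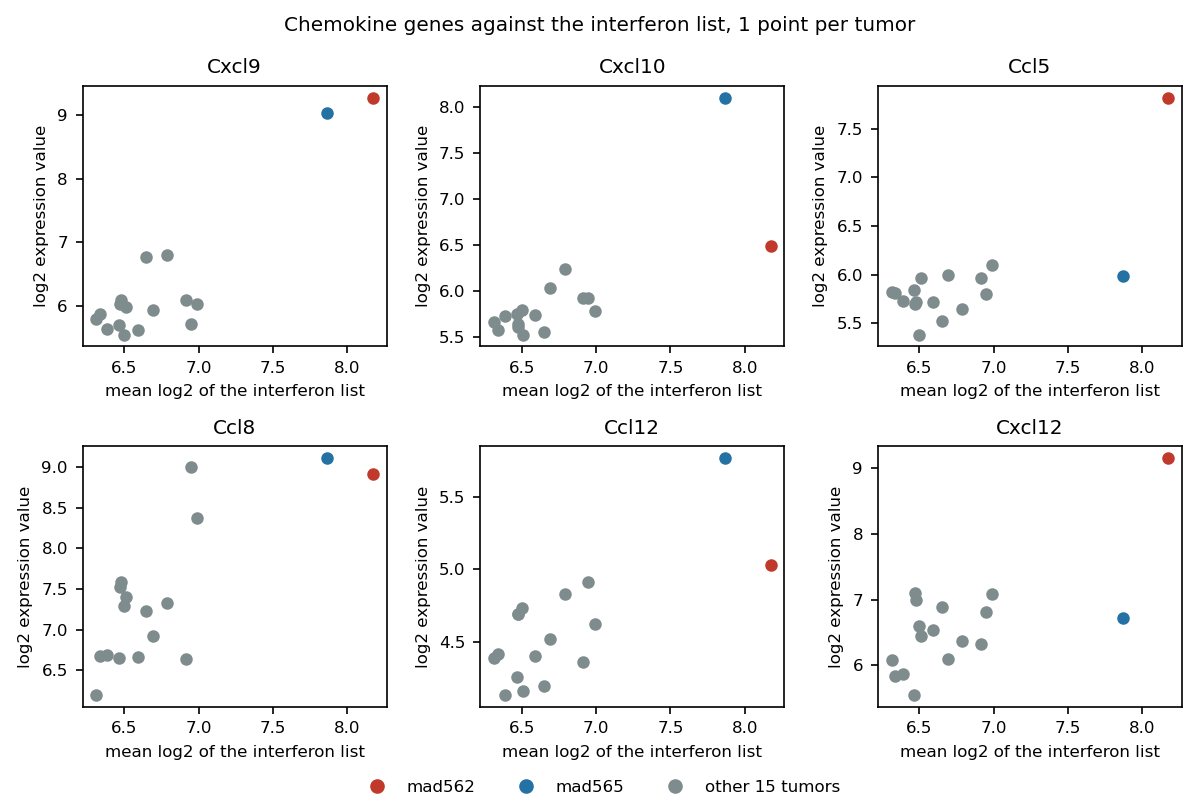
Log2 expression value of 6 chemokine genes (vertical) against the mean log2 value of 22 interferon response genes (horizontal), 1 point per tumor, with mad562 in red and mad565 in blue. Both tumors lie far to the right. Cxcl9 is high in both, Cxcl10 and Ccl12 are higher in mad565, Ccl5 and Cxcl12 are high only in mad562, and Ccl8 climbs before them.

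Markers of other cells gave few calls. For members at an unadjusted p under 0.05, the share over all genes was not counted, so those counts are not read as results. With 17 endothelial markers 1 member rose (2.08%, against 0.731% of all genes), Ccl3, with a slope of 1.41 (SE 0.32, limma adjusted p = 0.0473). Its call was lost when any of 13 single tumors was left out. Without mad562 and mad565 its slope was 0.91 (SE 0.35, limma adjusted p = 0.46). With 18 T and NK cell markers 0 members passed, against 0.0715% of all genes, and 12 members had an unadjusted p under 0.05. The smallest of these was that of Cxcr3, the receptor of activated T cells, with a slope of 1.94 (SE 0.42, limma adjusted p = 0.0995). The T and NK cell list varied little, from 5.19 to 5.49, and 10 of its 18 genes had a mean quartile under 1.5. With 17 fibroblast markers 0 members passed, against 0.104% of all genes, with 7 at an unadjusted p under 0.05. Cxcl12 had a slope of 0.91 (SE 0.39, limma adjusted p = 0.457) on that list. With the sympathoadrenal markers 0 members passed, against 0.0% of all genes, with 7 at an unadjusted p under 0.05. Among the 7, Ccl27a had a positive slope, 0.92 (SE 0.35, limma adjusted p = 0.29), and Ccl3 a negative one, -2.15 (SE 0.78, limma adjusted p = 0.267).

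Ligands were then set against the receptors that bind them. Of 8 receptors listed with textbook ligands 7 were measured, and the other was not analysed here. Of the 15 pairs with both genes measured, 0 passed limma's test over all genes, 11 had a positive slope and 3 had an unadjusted p under 0.05. The shares of all genes with a positive slope or such a p were not counted. Cxcl16, a membrane-bound chemokine of macrophages, had a slope of 1.18 on its receptor Cxcr6 (SE 0.36, p = 0.00444, limma adjusted p = 0.705). That pair had r = 0.63 (permutation p = 0.00754) and rho = 0.66 (permutation p = 0.0051), and r = 0.57 without mad548 and mad554, but Cxcr6 was in the lowest quartile of every tumor. Ccl7 and Ccl9 had slopes of 0.57 (SE 0.19, limma adjusted p = 0.9) and 1.30 (SE 0.50, limma adjusted p = 1.0) on Ccr1. The slope of Ccl7 was 0.01 without mad562 and mad565, and that of Ccl9 1.67.

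The pairs made of a single ligand and a single receptor did not pass. Cx3cl1, the membrane-bound fractalkine, stayed between 5.83 and 6.58 while its receptor Cx3cr1 ranged over 3.58 log2 units (slope 0.01, SE 0.05, limma adjusted p = 0.986). Cxcl12 had a slope of -0.12 on Cxcr4, a receptor of leukocytes and of migrating neural crest cells (SE 0.55, limma adjusted p = 0.991). Cxcr4 ran from 5.55 through a median of 6.25 and was highest in mad565, 0.75 above the median, and Cxcl12 was highest in mad562. Cxcl9, Cxcl10 and Cxcl11 had slopes of 1.41, 0.24 and 0.20 on Cxcr3 (SE 1.08, 0.62 and 0.15), which ran from 5.25 through 5.55 to 6.18 in mad555. The 4 ligands of Ccr2 had slopes between -0.06 and 0.46, but the other 3 probe sets of Ccr2 did not follow the one used (r from -0.20 to -0.02). The fits on Ccr1, Ccr2, Ccr7, Cxcr3, Cxcr4 and Cxcr6 called no rising gene at all (0.0% of all genes each), with between 0 and 11 members at an unadjusted p under 0.05. The share of all genes at that limit was not counted.

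Cx3cr1 was the only receptor with rising genes in its fit, 3.75% of all genes and 6 of the other 47 members (12.8%): Ccl4, Ccl5, Cxcl12, Cxcl13, Cxcl14 and Cxcl16. None of these is its ligand. The slope was steepest for Cxcl14 (0.68, SE 0.17, limma adjusted p = 0.0305). Cxcl13 had a slope of 0.57 (SE 0.07, limma adjusted p = 6.97e-05), and 0.50 (SE 0.12, 0.116) without mad562 and mad565. Cxcl16 had one of 0.24 (SE 0.06, limma adjusted p = 0.0417), and 0.44 (SE 0.10, 0.0596) without them. The slopes of the other 4 fell without both tumors, to 0.43 for Cxcl14 and from 0.63 to 0.15 for Cxcl12. That of Ccl5 went from 0.51 to 0.22 and that of Ccl4 from 0.29 to 0.13. None of the 6 passed without both tumors. Cx3cr1 itself lay farthest from its median in mad562 and mad550. Without mad562 and mad550, r with Cx3cr1 was 0.64 for Cxcl16, 0.49 for Cxcl13, 0.41 for Ccl5 and 0.13 for Cxcl14. It was negative for Ccl4 (-0.27) and Cxcl12 (-0.33). The second probe set of Cx3cr1, in the lowest quartile of every tumor, had an r of -0.27 with the one used.

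The genes most like the 3 members of largest SD were found by Pearson r over the 17 tumors, as a description. For Cxcl9 they were Gbp6 (r = 0.97, and 0.79 without mad562 and mad565), Irgm1 (0.96, and 0.60), Iigp1 (0.95, and 0.66), AW112010 (0.93, and 0.57) and Ifi47 (0.91, and 0.34), of which Gbp6, Irgm1, Iigp1 and Ifi47 encode interferon-inducible GTPases. For Ccl8 they were Selp (0.94, and 0.91), which encodes the adhesion molecule P-selectin of endothelium and platelets, Ifitm3 (0.90, and 0.84), Oasl2 (0.87, and 0.76), Sqor (0.86, and 0.84) and Nfe2l2 (0.84, and 0.70). For Ccl9 they were Ccl6 (0.90, and 0.84), Pdk4 (0.86, and 0.78), Pros1 (0.86, and 0.73), Ifi204 (0.86, and 0.70) and AI467606 (0.85, and 0.71).

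Other genes of chemokine signalling were read from a list of 40 symbols, some of them older names of 1 gene, of which 32 were measured. The list holds genes that carry the signal of the receptors inside the cell. It also holds other receptors such as Ackr3, the chemokines Pf4 and Ppbp, and proteases such as Adam17. With the macrophage list 7 of the 32 rose and 0 fell (against 4.5% and 0.572% of all genes). These were Pik3r5 and Pik3cg, subunits of the phosphoinositide 3-kinase gamma that receptors switch on, Dock2 and Rac2, which drive movement of leukocytes, Rgs2, a regulator of G proteins, Gnai2, a G protein subunit, and Adam17, a protease that cuts membrane-bound ligands. Pik3r5 had a slope of 1.60 (SE 0.23, limma adjusted p = 0.000242) and Rac2 one of 1.56 (SE 0.24, 0.000394). With the interferon list Dock2, Pik3r5, Rac2 and Rgs2 rose, 4 of 32, and 0 fell (against 4.09% and 0.363% of all genes). Without mad562 and mad565, 3 of the 32 rose with the macrophage list (Pik3cg, Pik3r5 and Rac2), against 1.26% of all genes. With the interferon list 1 rose, against 1.08%. That gene was Ppbp, a platelet chemokine of the list, with a slope of 2.96 (SE 0.69, limma adjusted p = 0.0474). Rac2 ran from 6.75 through 7.13 to 10.02 in mad562 and was 7.82 in mad565.

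The remaining members varied little. Ccl17, Ccl20, Ccl22, Ccl28, Cxcl3, Cxcl5, Cxcl15, Cxcl17, Xcl1, Ccr3, Ccr4, Ccr7, Ccr8, Ccr9, Ccr10, Cxcr2 and Cxcr5 had SDs between 0.10 and 0.20, and Ccr6, a receptor for Ccl20, one of 0.32. None of them passed in any of the 6 list fits.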

How the data were processed

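Values were log2 expression values per probe set (45101 on each array of 17 TH-MYCN tumors), which the authors made with RMA and deposited. The submitters' processing notes name RMA and Partek version 6.4, whereas the methods of the study name MAS5. The values were taken as RMA values. RMA's quantile normalization gives the arrays like distributions, and a quartile ranks a probe set within its array.

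Probe sets were named from the platform annotation. Those with several symbols (932) or none (9160) and 64 controls were left out, and a gene took its probe set of highest mean. Coordinates of promoters were RefSeq's, and the array files name no genome build. Fits used limma 3.58.1 in R 4.3.3 (lmFit and eBayes, two-sided) over all 18193 genes, with Benjamini-Hochberg adjustment and a threshold of 0.05, and a gene of a list was fitted against the mean of the others. Correlations used 100000 two-sided permutations. Tested on simulated data of 18193 genes made as for the macrophage list, limma recovered 44 of 50 genes with a slope of 1 and 38 of 50 with a slope of 0.5, with 5 false calls among 17993 genes. The simulated noise was drawn separately for each gene and tumor. The count of false calls thus need not hold for real genes that vary together. NumPy 2.4.6, pandas 2.3.3, SciPy 1.17.1 and Matplotlib 3.10.9 were used in Python 3.11.15.

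Members given in full were those with a mean quartile of 3.5 or above, the 12 of largest SD, those past the threshold with a list, and ligands and receptors of the pairs. Members, lists and pairs were chosen with earlier results of these data known, and leaving out mad562 and mad565 together was added after seeing the data. Nothing states whether tumors came from separate litters. The number of arrays limits the precision.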

Additional observations from a re-analysis of the deposited data

How the results depend on the processing

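The call rule moved the counts of risen members. A count with no value over all genes beside it shows only how far that count moved. With genes at or above the median level alone, 5 members were tested, so fewer members could be called. Of these, 2 rose with the macrophage list (366 of 9097 genes), 2 with the interferon list (261) and 0 with the endothelial list (60). Without mad562 and mad565 the counts were 2, 1 and 0, against 229, 197 and 13 of 18193 genes. With the interferon list as second covariate 0 members rose with the macrophage list, and the slope of Cxcl9 on it turned to -0.74, while with the macrophage list as second covariate 1 rose with the interferon list. The endothelial count was also 0 with arrays centred on their median and 0 without the 3 tumors of highest muscle list, and the cause was not tested. Leaving out single tumors gave 3 to 10 risen members for the macrophage list (3 without mad562), 9 to 11 for the interferon list, 0 to 3 for the endothelial list and 10 to 14 members with an SD of 0.5 or more. That last count was 6 with the spread taken from the median absolute deviation and 6 without mad562 and mad565. Only 1 member, not 2, had a mean quartile of 3.5 or above with the mean of all probe sets (Ccl27a) and also without the probe sets marked as shared (Ccl6, since Ccl27a has no other). Averaging probe sets, dropping those marked as shared, and scaling the list genes kept the macrophage count between 7 and 11 and the interferon count at 10. The T and NK cell, fibroblast, sympathoadrenal and receptor fits called 0 members of the list or pair in every alternative run. No paired analysis was possible because there is a single group of tumors. Dim probe sets limit what can be said of most receptors.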
